A study of Mus musculus with 6 samples.

Results

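The type 2 cytokine locus of the mouse holds the genes of interleukin 4 (Il4), interleukin 13 (Il13) and interleukin 5 (Il5), with Rad50 between them and Irf1 at the far end. These 5 genes were taken by their symbols from the 23183 symbols of each deposited count file, and all 5 were among the 12226 genes with enough counts to be tested. They were measured by RNA sequencing in 3 libraries of mouse T helper 9 (Th9) cells given sphingosylphosphorylcholine (SPC, d18:1, at 30 µM), a bioactive lysophospholipid, and in 3 control libraries without it. Both groups were wild-type C57BL/6N naive CD4 T cells of the spleen, activated through CD3e (plate-bound antibody, 1 µg/ml) and CD28 (soluble antibody, 1 µg/ml). Until day 3 the medium of both groups held 10 ng/ml of IL-4, 2 ng/ml of TGF-β1 and 10 µg/ml of an antibody against IFN-γ. The cells of both groups therefore received IL-4 protein from outside, and only the transcripts of their own Il4 gene were counted. The age of the mice and whether cells of several animals were pooled are not given in the labels.

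As background, Il4, Il13 and Il5 are the cytokine genes of type 2 helper T cells, and in these cells they lie within an extended domain that opens during differentiation under the factor GATA3. A locus control region that acts on the cytokine genes lies inside the 3′ part of Rad50, whose own product is a DNA repair protein of nearly all cells. IL-4 and IL-13 signal through receptors that share the chain IL-4Rα and activate STAT6, whereas IL-5 acts on eosinophils through a receptor with the common beta chain. Irf1 encodes a transcription factor induced by interferons. Th9 cells are obtained by adding TGF-β to the IL-4 that drives type 2 cells.

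In the mm10 build (GENCODE M21 annotation) the 5 genes span 175.4 kb of chromosome 11. Il4 (53602982 to 53618669), Il13 (53631324 to 53634702) and Rad50 (53649519 to 53707319) lie on the minus strand, and Il5 (53720794 to 53725106) and Irf1 (53770014 to 53778374) on the plus strand. The gaps between neighbours are 12.7 kb from Il4 to Il13, 14.8 kb from Il13 to Rad50, 13.5 kb from Rad50 to Il5 and 44.9 kb from Il5 to Irf1. No exonic base of Il4, Il13 or Rad50 lies in an exon of another annotated gene. For Il5, 27.1% of the exonic bases lie in the antisense gene Gm12214, and for Irf1 3.4% lie in Gm17334. Neither of these symbols is in the count files, and the strand setting of the counting is not given in the sources used here.

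The promoters of the 4 genes with an entry in the RefSeq table (GRCm38.p6, the assembly that mm10 names) are shown to describe the locus. Any relation of their letters to the fold changes with SPC was not tested. Each run holds the 250 bases before the outermost annotated start, 5′ to 3′ on the gene's own strand. Capitals mark every match, on either strand, to the letters of 7 motifs named for the factors that bind them, which are GATA (GATA), NFAT (GGAAA), AP-1 (TGANTCA), STAT6 (TTCNNNNGAA), the interferon-activated GAS element (TTCNNNGAA), the interferon regulatory factors (GAAANNGAAA) and the NF-kappaB consensus. Rad50 is named only.
Il13, chr11:53634703-53634952, minus strand: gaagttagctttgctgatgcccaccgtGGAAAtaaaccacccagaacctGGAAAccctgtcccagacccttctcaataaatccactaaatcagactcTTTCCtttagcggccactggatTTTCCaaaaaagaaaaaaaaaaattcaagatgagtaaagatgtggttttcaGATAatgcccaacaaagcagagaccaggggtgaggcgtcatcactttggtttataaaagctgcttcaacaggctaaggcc
Il4, chr11:53618666-53618915, minus strand: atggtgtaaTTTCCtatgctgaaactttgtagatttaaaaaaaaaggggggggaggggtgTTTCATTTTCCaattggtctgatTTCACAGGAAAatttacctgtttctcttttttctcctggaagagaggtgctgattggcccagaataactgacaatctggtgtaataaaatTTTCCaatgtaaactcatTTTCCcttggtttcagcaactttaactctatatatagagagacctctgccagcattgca
Il5, chr11:53720544-53720793, plus strand: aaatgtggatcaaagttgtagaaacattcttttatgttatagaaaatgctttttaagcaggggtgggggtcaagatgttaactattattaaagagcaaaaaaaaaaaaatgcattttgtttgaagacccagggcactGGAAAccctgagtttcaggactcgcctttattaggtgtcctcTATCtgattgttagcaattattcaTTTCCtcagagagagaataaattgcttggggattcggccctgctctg
Irf1, chr11:53769764-53770013, plus strand: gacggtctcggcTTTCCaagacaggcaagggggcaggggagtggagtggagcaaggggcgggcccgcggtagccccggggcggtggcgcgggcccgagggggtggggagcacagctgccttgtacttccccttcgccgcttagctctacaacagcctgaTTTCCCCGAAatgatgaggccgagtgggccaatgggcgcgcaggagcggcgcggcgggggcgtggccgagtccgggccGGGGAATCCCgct

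The NFAT letters occurred 5 times in the Il4 run, 4 times in that of Il13 and 2 times each in those of Il5 and Irf1, and 55.6% of all 32851 promoter runs of this length hold them at least once. Il13 and Il5 each held 1 GATA match, at 80 to 77 and at 71 to 68 bases before the start, and Il4 and Irf1 held none (53.6% of all runs hold it). The STAT6 letters were in the Il4 run alone among these 4, at 167 to 158 bases before the start, and overlap an NFAT match (5.85% of all runs). Il4 also held the interferon regulatory factor letters, again overlapping an NFAT match (2.98% of all runs). The Irf1 run held 1 GAS element, at 90 to 82 bases, which overlaps an NFAT match, and 1 NF-kappaB match, at 13 to 4 bases (7.02% and 7.25% of all runs). None of the 4 held the AP-1 letters, which 6.75% of all runs hold. The 3 cytokine promoters had 37.6% to 43.2% G and C, and that of Irf1 71.2%. A match is a description of letters, not of binding.

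The 6 libraries held 22002050 to 33049997 counts, and the 5 genes had between 307 and 5906 counts in each. Normalised read counts are CPM scaled by the trimmed mean of M values, given as mean ± SD with n = 3 in each group. Il9, the gene that gives Th9 cells their name, had a mean of 1138 CPM with SPC and 539 CPM in control, and is not one of the 10 T cell markers that follow. T cell markers were measured in both groups, with Cd4 at 468.4 ± 13.7 CPM with SPC and 448.7 ± 17.2 CPM in control, and Cd3e at 98.1 ± 17.7 and 104.1 ± 7.35 CPM. Of 10 T cell markers none was called in edgeR (1 higher and 2 lower at an unadjusted p under 0.05, and 1 in each direction in DESeq2), and their summed level was 2050 to 2350 CPM with SPC and 2090 to 2150 CPM in control. With the block by library number described below, 2 of the 10 were called, both without overlap. Of all tested genes 7.08% were called with the block and 0.483% without it. Without overlap between the groups, 8.67% of all tested genes were higher with SPC and 7.80% lower. Cd2, an adhesion receptor gene, fell to 168.9 ± 11.1 CPM with SPC, against 228.5 ± 15.5 CPM in control (log2 fold change -0.44 ± 0.08 and edgeR adjusted p = 0.0598 without the block, 0.00144 with it). Cd5, a gene for an inhibitor of T cell receptor signalling, rose to 268.5 ± 7.69 CPM with SPC, against 209.8 ± 7.17 CPM in control (0.36 ± 0.07 and edgeR adjusted p = 0.0597 without the block, 0.00157 with it). The part of these 2 genes in the results was not tested. Mast cells and basophils, which also make IL-4 and IL-13, left little trace. Of their 10 markers 5, Cpa3, Mcpt8, Mcpt4, Tpsb2 and Fcer1a, had 0 counts in all 6 libraries (3 counts, the limit that a count of 0 allows, are 0.136 CPM or less in each). Hdc, the only tested one of the 10, had 1.085 ± 0.20 CPM with SPC and 0.67 ± 0.08 CPM in control, without overlap. Its log2 fold change was 0.71 ± 0.28 (edgeR adjusted p = 0.402). The 10 together summed to 1.22 to 1.76 CPM with SPC and 0.955 to 1.06 CPM in control. The part of these small differences in the results below was not tested. In bulk samples, fewer cells that use a gene and less RNA per cell cannot be told apart.

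Il13 was the member that differed most between the groups. Its level was 174.4, 149.9 and 158.3 CPM in the SPC libraries numbered 1 to 3, against 112.9, 108.3 and 84.1 CPM in the control libraries. The groups did not overlap, and the lowest SPC library stood above the highest control library. The means were 160.9 ± 12.4 CPM with SPC and 101.8 ± 15.5 CPM in control, a fold of 1.58. The log2 fold change was 0.66 ± 0.12 (SE, 95% interval 0.40 to 0.92), with an adjusted p of 0.0530 in edgeR's quasi-likelihood test, just outside the threshold of 0.05. With the library number as a block, which takes same-numbered libraries as pairs, Il13 rose by 0.67 ± 0.08 (adjusted p = 0.000555 in edgeR). The labels do not state this pairing, which was inferred from correlations between the libraries that are given with the processing. In each of the 3 pairs the SPC library was the higher, by 1.54-fold, 1.38-fold and 1.88-fold. None of the 5 members was called without the block and 1 of 5, Il13, was called with it, where 0.483% and 7.08% of all tested genes were called. Of all tested genes, 0.327% were called higher with SPC without the block and 4.02% with it, and 8.67% were higher with no overlap between the groups. By p, Il13 was the 76th gene of the 12226.

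Il4 had values of the opposite sign. It had 12.4, 11.8 and 14.9 CPM in the SPC libraries, against 16.2, 17.2 and 15.8 CPM in the control libraries. All SPC libraries lay below all control libraries, and SPC library 3 was the closest to the control range. The means were 13.0 ± 1.66 CPM with SPC and 16.4 ± 0.74 CPM in control, a log2 fold change of -0.34 ± 0.11 (95% interval -0.59 to -0.08). Il4 did not pass the test (adjusted p = 0.331 in edgeR, and 0.0737 with the block). Of all tested genes, 0.155% were called lower without the block and 3.07% with it, and 7.80% were lower with no overlap.

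Il5 had the smallest fold change of the 5 genes. Its SPC libraries gave 37.9, 38.3 and 48.0 CPM and its control libraries 32.8, 40.1 and 49.3 CPM. The groups overlapped throughout, and the library numbered 3 was the highest in each. The log2 fold change was 0.03 ± 0.15 (95% interval -0.32 to 0.37, adjusted p = 0.978 in edgeR, and 0.836 with the block). Without SPC library 3 it was -0.09 and without control library 1 it was -0.10, so that its sign rested on single libraries.

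Rad50, the gene between the cytokine genes, had 152.0, 183.4 and 207.3 CPM with SPC, against 176.2, 195.9 and 245.6 CPM in control. The groups overlapped, but within each pair the SPC library was the lower. The means were 180.9 ± 27.7 CPM with SPC and 205.9 ± 35.7 CPM in control (log2 fold change -0.19 ± 0.14, 95% interval -0.51 to 0.14, adjusted p = 0.743 in edgeR). With the block the SE narrowed to 0.05 at a fold change of -0.18, and the adjusted p was 0.0640. Irf1 had 20.02, 21.5 and 22.4 CPM with SPC and 16.3, 19.3 and 22.7 CPM in control. These groups overlapped too, with a log2 fold change of 0.13 ± 0.13 (95% interval -0.15 to 0.42, adjusted p = 0.811 in edgeR, and 0.363 with the block). In Rad50, Il5 and Irf1 alike, the library numbered 1 was the lowest and that numbered 3 the highest of its group, in SPC and in control.

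**Figure D1:**
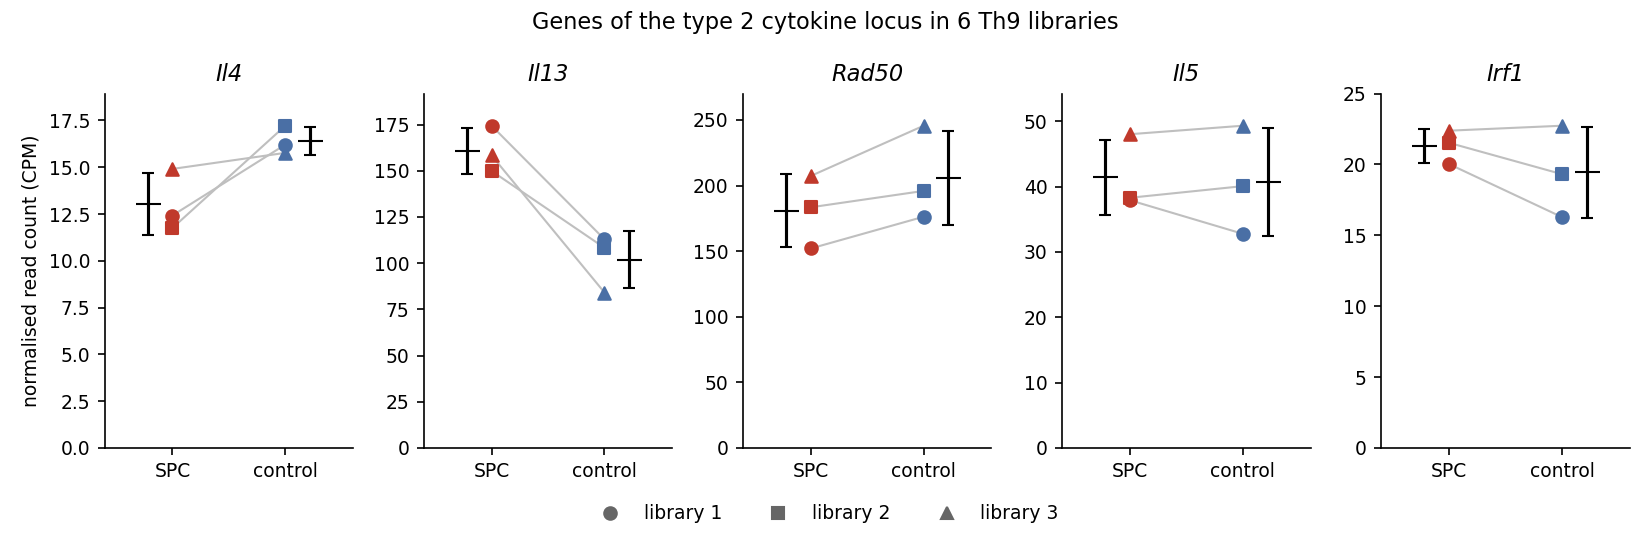
Normalised read count (CPM, y axes from 0) of the 5 locus genes in 3 SPC (left) and 3 control (right) libraries. Points are libraries, grey lines join libraries of the same number, and black bars give the mean and SD (n = 3). The Il13 libraries do not overlap between the groups, with 149.9 CPM as the lowest SPC and 112.9 CPM as the highest control value, and those of Rad50, Il5 and Irf1 do.

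The neighbours were then set against each other by their ratio within each library, which does not depend on how libraries are scaled. In the order of their fold changes (Il13, Irf1, Il5, Rad50, Il4), 10 pairs were compared between the groups by an exact two-sided permutation test with adjustment over the 10 pairs. With 3 libraries against 3 the smallest p that this test allows is 0.10, so no pair could pass the threshold. An exact test that flips the signs of the 3 same-numbered differences allows no p below 0.25.

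The ratio of Il13 to Il4 differed most between the groups. Its log2 value was 3.81, 3.67 and 3.41 in the SPC libraries, against 2.80, 2.65 and 2.41 in the control libraries. The groups did not overlap, and the mean difference was 1.01, a ratio 2.01-fold higher with SPC (exact p = 0.10, adjusted p = 0.167). In the 3 same-numbered pairs the ratio was 2.01-fold, 2.03-fold and 1.99-fold higher. The SD of these 3 log2 differences was 0.01, below the counting error of each of them (SE of 0.102 to 0.117 on the log2 scale), so such closeness is finer than the counts can resolve. The split of this difference between the genes was not the same in every pair. In pair 2 Il4 stood at 0.683 of the control level and Il13 at 1.38-fold, and in pair 3 Il4 stood at 0.945 of the control level and Il13 at 1.88-fold.

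Against the other neighbours Il13 was also higher in each pair. The log2 ratio of Il13 to Rad50 was higher with SPC by 0.85, that to Il5 by 0.63 and that to Irf1 by 0.53 (exact p = 0.10, 0.20 and 0.10, adjusted p = 0.167, 0.25 and 0.167). Control library 3 weighed on the last 2 of these differences, which were 0.35 for Il5 and 0.27 for Irf1 without it. The groups did not overlap for Rad50 and Irf1 as partners and overlapped for Il5. The ratio of Irf1 to Rad50 was higher by 0.33 and that of Il5 to Rad50 by 0.22, both without overlap (exact p = 0.10, adjusted p = 0.167). Of the 10 pairs, Il5 and Irf1 had the smallest difference, that of the log2 ratio of Irf1 to Il5, at 0.11 ± 0.10 (SD of the 3 pairs, exact p = 0.30, adjusted p = 0.333). It was 0.05 without SPC library 2 and 0.18 without SPC library 3. Rad50 and Il4 differed by 0.15 ± 0.31, with a pair on either side of 0 (exact p = 0.40, adjusted p = 0.40). In the other 9 comparisons all 3 pairs had the sign of the mean.

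**Figure D2:**
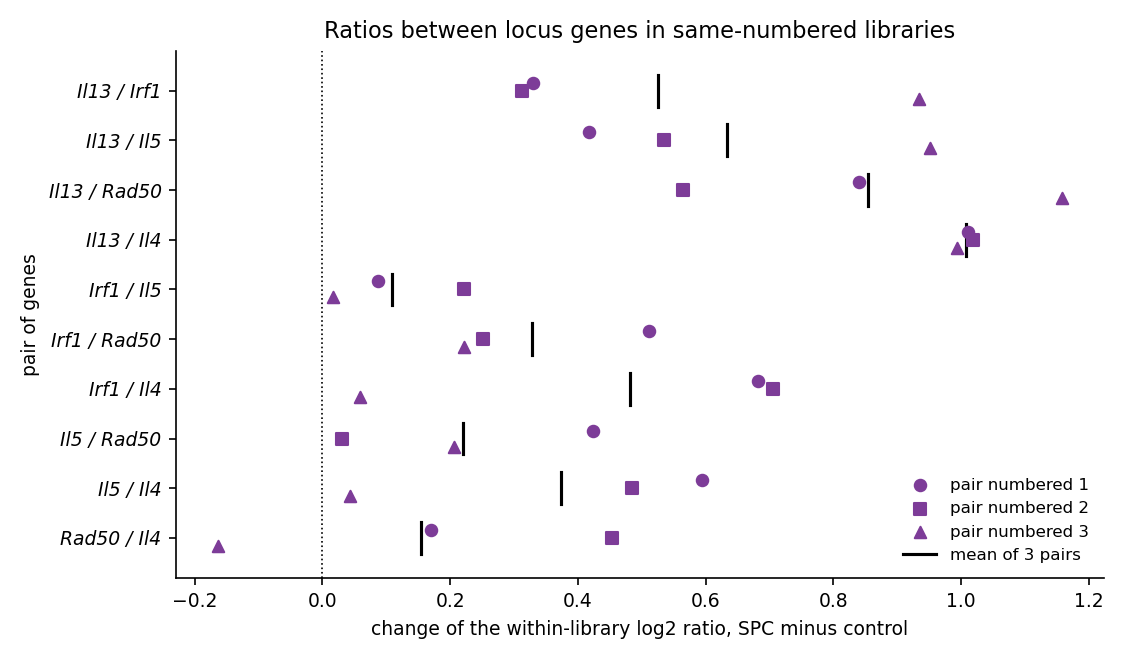
Change of the log2 ratio of 2 locus genes within a library, SPC minus control (x axis), for the 10 pairs of genes (y axis). Each symbol is a same-numbered pair of libraries and the black line is the mean of the 3 pairs. The 3 symbols of Il13 over Il4 lie together at a mean of 1.01, and those of Rad50 over Il4 fall on both sides of 0.

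The 3 cytokine genes were also read as a sum of raw counts, in which a longer transcript weighs more. Il13 took 77.6%, 75.0% and 71.6% of the counts of Il4, Il5 and Il13 together in the SPC libraries, against 69.7%, 65.4% and 56.4% in the control libraries. The 95% Wilson interval of the lowest of these shares was 54.7% to 58.1% and that of the highest 76.6% to 78.5%, which covers counting error only. The mean share of Il13 was 74.7% ± 3.01 with SPC and 63.8% ± 6.79 in control, and that of Il4 was 6.05% ± 0.62 with SPC and 10.3% ± 0.31 in control. Neither overlapped between the groups (exact p = 0.10 each, adjusted p = 0.133 over 4 comparisons). The share of Il5 was 19.2% ± 2.40 with SPC and 25.8% ± 6.60 in control, and these overlapped (exact p = 0.20, adjusted p = 0.20). With each gene's counts divided by its transcript length, the share of Il13 was 73.1% ± 3.07 with SPC and 60.7% ± 5.85 in control, that of Il4 12.1% ± 1.18 with SPC and 20.1% ± 0.751 in control, and that of Il5 14.8% ± 1.80 with SPC and 19.3% ± 5.13 in control. Per length, too, the groups overlapped for Il5 and not for Il13 or Il4. The summed level of the 3 genes was 215.3 ± 13.4 CPM with SPC and 158.9 ± 8.59 CPM in control, 1.36-fold higher and without overlap (exact p = 0.10, adjusted p = 0.133). These 4 comparisons are not independent, because the 3 shares make up the whole and a higher Il13 lowers the others. Il13 is also the largest part of the sum, at 160.9 CPM with SPC and 101.8 CPM in control. Il5 itself had 41.4 ± 5.73 CPM with SPC and 40.7 ± 8.30 CPM in control.

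The levels of all 5 genes were then set side by side per kilobase, with the length of the transcript that has the longest coding part. Il13 stood first in both groups, at 133.5 ± 10.3 CPM per kilobase with SPC and 84.5 ± 12.8 in control, at the 94.7th percentile of 12154 genes with a length. Rad50 came next, at 35.1 ± 5.38 CPM per kilobase with SPC and 40.0 ± 6.93 in control. Il5 had 26.9 ± 3.73 CPM per kilobase with SPC and 26.5 ± 5.40 in control. Il4 had 22.1 ± 2.81 CPM per kilobase with SPC and 27.8 ± 1.25 in control. Irf1 was the lowest, at 9.97 ± 0.56 CPM per kilobase with SPC and 9.10 ± 1.51 in control, close to the middle of all genes (percentile 49.6). Il13 and Irf1 did not overlap with any other member in either group. Il5 overlapped with Rad50 in the SPC libraries and with Il4 in both groups, so that the order of these neighbours in level is not set. The length matters most for Il4, whose transcript of 590 bases lies in a union of exons of 1227 bases. Per kilobase of that union Il4 had 10.6 CPM with SPC and 13.4 CPM in control, below Il5.

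**Figure D3:**
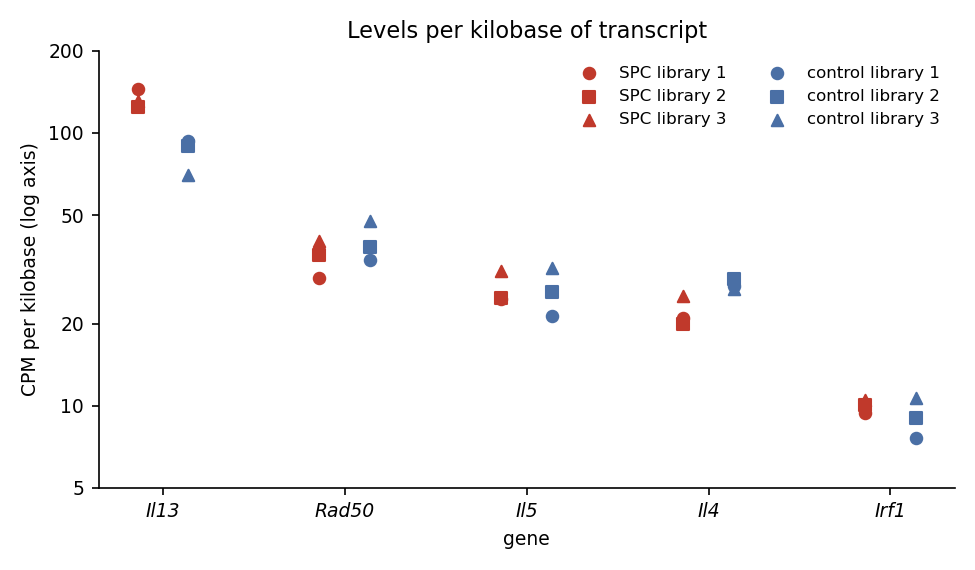
Level of the 5 locus genes in CPM per kilobase of transcript (y axis, log scale), SPC libraries left and control libraries right of each gene. Il13 lies above all others in both groups, with SPC libraries between 124.4 and 144.7 and control libraries between 69.8 and 93.7, and Irf1 lies below all others.

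The genes within 500 kb of the locus were read beside the members. Of 26 such symbols 18 were tested, the 5 members included. None was called in edgeR (0.327% and 0.155% of all genes were called higher and lower), 1 was higher and 5 were lower at an unadjusted p under 0.05, and DESeq2 called 1 in each direction. With the block Il13 was called higher and 3 genes lower (4.02% and 3.07% of all genes). Il13 had the largest positive log2 fold change of the 18, 6 were above 0, and the median was -0.13, against 0.00 over all tested genes. When 1 library was left out, this median lay between -0.20 (without SPC library 3) and -0.002 (without control library 3), so its size rested on single libraries. Without overlap 1 was higher and 5 were lower (8.67% and 7.80% of all tested genes).

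The gene with the smallest p after Il13 was Aff4, which encodes a scaffold of the super elongation complex, at 186.8 ± 35.3 CPM with SPC and 251.4 ± 13.99 CPM in control. Its log2 fold change was -0.43 ± 0.13 (adjusted p = 0.244 in edgeR, and 0.00537 with the block). Sept8, a septin gene, and P4ha2, an enzyme of collagen hydroxylation, were the other genes called lower with the block (adjusted p = 0.00973 and 0.0174), with log2 fold changes of -0.35 ± 0.11 and -0.46 ± 0.33 without it (adjusted p = 0.254 and 0.729 in edgeR). Between Sept8 and Il4 lies Kif3a, a kinesin gene, with -0.07 ± 0.15 (adjusted p = 0.934 in edgeR). The cytokine gene Csf2, which encodes GM-CSF, had 8.78 ± 1.55 CPM with SPC and 6.33 ± 1.80 CPM in control. Its log2 fold change of 0.47 ± 0.22 was the second largest positive value, with an adjusted p of 0.537 in edgeR, and 0.0505 with the block. Its neighbour Il3, which encodes a growth factor of mast cells, had -0.25 ± 0.22 (adjusted p = 0.791 in edgeR).

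**Figure D4:**
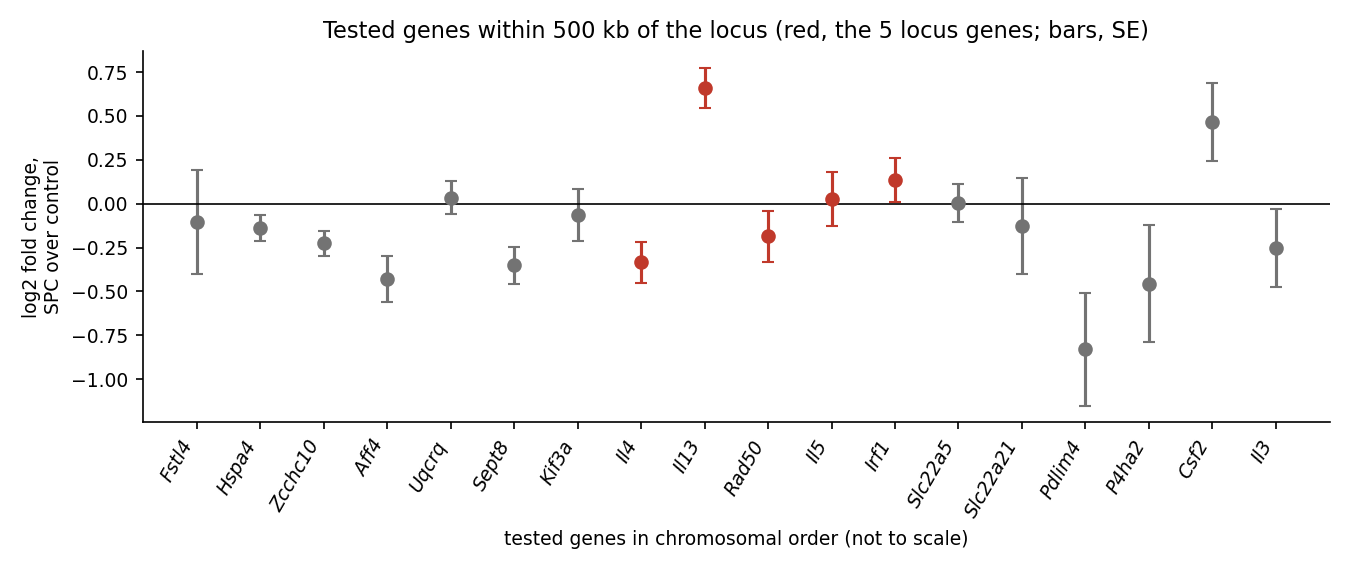
Log2 fold change of SPC over control (y axis, bars are SE) for the 18 tested genes within 500 kb of the locus, in chromosomal order and not to scale. The 5 locus genes are red. Il13, at 0.66, lies highest and its neighbours Il4 and Rad50 lie below 0.

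Of 20 genes listed as activators of the locus 19 were tested, and none was called in edgeR (4 higher and 3 lower at an unadjusted p under 0.05, and 1 higher and 3 lower in DESeq2). Their median log2 fold change was 0.00, as over all tested genes. With the block 4 rose and 3 fell. The shares of all tested genes called higher and lower were 0.327% and 0.155% without the block and 4.02% and 3.07% with it. This list and those that follow were chosen with earlier results of these data known, so their counts are descriptions only. Maf, which encodes a factor that activates Il4 in type 2 cells, had 12.5, 9.34 and 8.996 CPM with SPC, against 6.02, 5.31 and 5.18 CPM in control. These groups did not overlap (log2 fold change 0.90 ± 0.16, adjusted p = 0.0538 in edgeR, and 0.000937 with the block). Maf and Il4 thus differed in the direction of their values. Satb1, an organiser of chromatin loops at the locus, had 90.9 ± 19.8 CPM with SPC and 155.4 ± 12.4 CPM in control (-0.77 ± 0.14, adjusted p = 0.0597 in edgeR, and 0.000135 with the block). Gata3, the main factor of type 2 cells, had 232.7 ± 16.6 CPM with SPC and 261.3 ± 15.97 CPM in control (-0.17 ± 0.08, adjusted p = 0.542 in edgeR). Stat6, the factor that IL-4 activates, had 264.4 ± 6.85 CPM with SPC and 259.6 ± 7.93 CPM in control (0.03 ± 0.06, adjusted p = 0.941 in edgeR).

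Of the 14 tested genes listed for factors that restrain the locus none was called in edgeR (4 higher and 1 lower at an unadjusted p under 0.05, and 4 higher and 0 lower in DESeq2). With the block 4 rose and none fell, where 4.02% and 3.07% of all tested genes did (0.327% and 0.155% without it). Their median log2 fold change was -0.02, against 0.00 over all tested genes, and 7 of the 14 were above 0. Without overlap 4 were higher and 3 lower (8.67% and 7.80% of all tested genes). Foxp3, the factor of regulatory T cells, had 52.5 ± 8.79 CPM with SPC and 32.7 ± 2.32 CPM in control (0.68 ± 0.12, adjusted p = 0.0577 in edgeR, and 0.000868 with the block). Sox4, which restrains GATA3, had 8.14 ± 0.92 CPM with SPC and 4.63 ± 0.84 CPM in control (0.82 ± 0.17, adjusted p = 0.0792 in edgeR, and 0.00268 with the block).

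Of 20 genes of type 2 cells listed apart from Il4, Il5 and Il13, 16 were tested. Of these 1 fell and none rose (8 fell and 1 rose with the block), with a median log2 fold change of -0.41, against 0.00 over all tested genes. The list was chosen with earlier results of these data known, so these values describe its genes and are no test of type 2 cells. Gata3, Maf and Gfi1 are also in the list of activators. With the block Maf was the gene that rose, and Gfi1 was among those that fell. Over all tested genes 0.155% fell and 0.327% rose, and 3.07% and 4.02% with the block. Il13 is no member of this list. Ccr8, a chemokine receptor gene and the one called, fell to 104.3, 96.5 and 90.3 CPM with SPC, against 136.8, 133.0 and 142.7 CPM in control (-0.50 ± 0.08, adjusted p = 0.0373 in edgeR). Il4 shared the sign of that median and Il13 had the opposite sign, which was not tested as a difference from the list.

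The receptors of the locus cytokines were unevenly present. Il4ra, the chain shared by the IL-4 and IL-13 receptors, had 420.5 ± 23.6 CPM with SPC and 469.5 ± 9.10 CPM in control (-0.16 ± 0.07, adjusted p = 0.466 in edgeR). Il13ra1, which encodes another IL-13 receptor chain, had a mean of 0.12 CPM with SPC and 0.13 CPM in control, too low to be tested. Il13ra2, which encodes a decoy receptor, had 0 counts in all 6 libraries, which allows up to 0.136 CPM in each, and Il5ra, the chain specific to IL-5, had a mean of 0.02 CPM with SPC and 0.01 CPM in control, too low to be tested. Csf2rb, the common beta chain used by IL-5, IL-3 and GM-CSF, fell to 1.49, 1.95 and 2.22 CPM with SPC, against 5.85, 6.54 and 8.86 CPM in control (-1.91 ± 0.22, adjusted p = 0.0164 in edgeR). It was the only one called of the 14 tested genes of receptors and their signal chain (3 lower with the block), whose median was -0.04. Among all tested genes 0.155% were called lower without the block and 3.07% with it.

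Of the 17 tested genes listed as regulated by Irf1, 6 had a log2 fold change above 0. Of the 17, 2 rose and none fell (2 rose and 3 fell with the block), with a median of -0.07. This list, too, was chosen with earlier results of these data known, so its counts describe the genes and do not test the action of Irf1. Of all tested genes 0.327% rose and 0.155% fell, and 4.02% and 3.07% with the block. The 2 were Gbp2, at 33.3 ± 7.25 CPM with SPC and 7.04 ± 0.21 CPM in control (2.24 ± 0.16, adjusted p = 0.00192 in edgeR), and Gbp5, at 22.5 ± 6.99 CPM with SPC and 5.22 ± 1.51 CPM in control (2.11 ± 0.27, adjusted p = 0.0200 in edgeR). Both encode interferon-inducible GTPases. A further list held 9 tested genes, 7 Irf genes and 2 genes of IRF2-binding proteins (Irf2bp1 and Irf2bp2), which are not Irf factors. Irf5 was the one called and rose to 47.5 ± 5.51 CPM with SPC, against 26.0 ± 1.24 CPM in control (0.87 ± 0.10, adjusted p = 0.0164 in edgeR). With the block Irf5, Irf4 and Irf2bp2 were higher (adjusted p = 0.000288, 0.0184 and 0.0443 in edgeR), 2 of the 7 Irf genes and 1 of the others, where 4.02% of all tested genes were higher.

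Of the 12 tested genes of the MRN complex (Mre11a, Rad50 and Nbn, which senses DNA breaks) and its partners none was called in edgeR, also with the block, and DESeq2 called 0. Without the block none had an unadjusted p under 0.05 in edgeR. With it Rad50 had an unadjusted p of 0.00528 in edgeR (adjusted p = 0.0640). Of all tested genes 0.483% were called without the block and 7.08% with it. The median of the 12 was -0.03. For Mre11a the log2 fold change was -0.13 ± 0.07 (edgeR adjusted p = 0.604) and for Rbbp8, a cofactor of DNA end resection, it was 0.14 ± 0.09 (adjusted p = 0.688 in edgeR).

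For each member the 3 genes of nearest pattern were sought among 9157 genes of at least 5 CPM, by the root mean square difference of log2 CPM over the 6 libraries after centring each gene on its mean. The genes nearest to Il13 were Fcrl1, Sh3bp4 and Snx11 (0.0806 to 0.0951), and those nearest to Il4 were Lpar2, which encodes a receptor of lysophosphatidic acid, Nck2 and Ralgps2 (0.0574 to 0.0664). Rad50 lay nearest to Dnaja4, Stat3 and Helb (0.0313 to 0.0356), Il5 to Pde4a, Hook2 and Six5 (0.0439 to 0.0495) and Irf1 to Lsm10, Neu3 and Slc38a9 (0.0423 to 0.0455). No member was among the nearest 3 of another. Among the members Il5 and Irf1 were the closest to each other, at 0.101, and Il13 and Rad50 the farthest apart, at 0.538, with Il13 and Il4 at 0.529. Even so, Irf1 was only the 177th nearest to Il5 among all 12226 tested genes.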

How the data were processed

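The authors deposited raw read counts per gene symbol, 1 file per library, with 23183 symbols each. TopHat and the build mm10 are named per the submitters' processing notes. How reads were counted, on which annotation and with which strand setting is not given in these sources. Per the labels' protocols, 1.3 µg of total RNA went into each library, with a kit that marks strand. Of the symbols, 98.54% matched GENCODE M21 for coordinates and lengths.

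The test was that of edgeR 4.0.16, run in R 4.3.3 (quasi-likelihood F test, robust, TMM scaling, filterByExpr with a minimum count of 10 and minimum total of 15, group as the single term), with Benjamini-Hochberg adjustment over 12226 genes and calls at an adjusted p under 0.05. Each SE was derived from the log2 fold change and its F value. Ratios between members used counts plus 0.5, and patterns log2 CPM with a prior count of 2. The script was tested on simulated data. Alternatives were DESeq2 1.42.0, other scaling, no filter, the replicate block and leaving out libraries.

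Replicates are taken from the sample titles, and the series text speaks of 3 independent experiments. Deviations of same-numbered libraries from their group means correlated at 0.413, 0.208 and 0.508 across genes, all above 0.1, so the numbers were taken to pair the libraries and the blocked value is given where it changes a call or bears on a member. No pair of libraries agreed within counting noise (chi-square per degree of freedom 4.82 or more).

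Members and lists were chosen with earlier results of these data known. Named are the 5 members, called genes of each list, or the 2 of smallest p where none was called, and the nearest genes by pattern. Gata3, Gfi1, Stat6, Il4ra, Il13ra1, Il13ra2, Il5ra, the marker genes, Irf4, Irf2bp1, Irf2bp2 and Il9 were added after their values were seen. So were the neighbours Kif3a, Sept8, P4ha2, Csf2 and Il3.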

Additional observations from a re-analysis of the deposited data

How the results depend on the processing

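Il13 passed the threshold in 3 of 14 alternatives, with the replicate block (log2 fold change 0.67), without a filter on low counts (0.66, adjusted p = 0.0121) and in the DESeq2 Wald test (0.66, adjusted p = 3.13e-05). The block changed the call of no other member. The value of Il13 lay between 0.55 and 0.77 in all 14, and when 1 library or both of a number were left out edgeR's adjusted p was between 0.0686 and 0.647. Il4 (-0.47 to -0.22), Rad50 (-0.30 to -0.04) and Irf1 (0.03 to 0.26) kept their sign and were not called in any of the 14. Il5 lay between -0.10 and 0.19 and changed sign in 3, when SPC library 3 or control library 1 was left out and without both libraries numbered 1 (-0.048). The 10 differences between members kept their sign in all 8 alternatives run for them, and that of Il13 and Il4 lay between 0.90 and 1.12. The replicate block among these could not change a sign, because the mean of the paired differences equals the difference of the group means. Leaving out a library moved 5 of the 10 by over 1.5 times. Without control library 3, Il13 minus Irf1 was 0.27 (0.53 with all) and Il13 minus Il5 was 0.35 (0.63 with all). Il5 minus Il4 was 0.23 without control library 1 (0.37 with all). Irf1 minus Il5 was 0.05 and 0.18 without SPC library 2 or 3 (0.11 with all). Rad50 minus Il4 (0.15 with all) was 0.24 and 0.07 without SPC library 1 or 2, and 0.06, 0.09 and 0.32 without control library 1, 2 or 3.

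The number of genes called, 59 (40 higher and 19 lower), was 866 with the replicate block (491 and 375), 282 in DESeq2 (180 and 102) and 147 without the filter (97 and 50). It lay between 6 and 66 when 1 library was left out (4 to 53 higher and 1 to 16 lower), with 6 when either library numbered 2 was missing, 28 and 35 when the control or the SPC library numbered 3 was missing, and 38 when control library 1 was missing. Without both libraries numbered 1 it was 15 (10 and 5), without both numbered 3 it was 38 (25 and 13), and without both numbered 2 it was 0 in edgeR (0 and 0), with 502 genes at an unadjusted p under 0.05. Per kilobase of the exon union, Il4 had 10.6 CPM with SPC and 13.4 CPM in control, and Irf1 5.36 and 4.89. The cause of these differences was not tested. The depth gave Il4 and Irf1 no more than 659 counts in a library.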
